A study of Mus musculus with 6 samples.

Results

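The 45 genes examined here are the cyclins, the kinases they activate, the DNA replication genes and the mitosis and kinetochore genes of the embryonic mouse outflow tract (OFT), the vessel through which the embryonic heart empties. They were chosen by symbol from general knowledge of the cell cycle, with earlier results of these data known. Their rows were found by Ensembl identifier among the 28777 genes of the deposited count table. All 45 were found and all 45 passed the filter of more than 5 reads over the libraries, as did 28157 genes in all. By role they comprise 13 replication genes, 7 genes of the passage from G1 to S phase, 13 regulators of G2 and M phase, 10 kinetochore, spindle and proliferation genes and 2 inhibitors of cyclin-dependent kinases. The 23 genes of the G2 and M and the kinetochore and spindle groups are called mitotic below.

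The data are 6 bulk RNA-Seq libraries of OFTs dissected at E13.5, each made from 3 pooled OFTs, 18 in all. In 3 libraries the label gives the embryos as Notch1+/-; Nos3-/-, compound mutants with 1 disrupted copy of the receptor gene Notch1 and no intact copy of Nos3, the endothelial nitric oxide synthase. The other 3 are labelled wildtype and came from littermates on the same C57/BL6J background. Both alleles are germline knockouts and act in every cell of the embryo. Because embryos were pooled, each value is an average over embryos. The libraries held between 34729103 and 44387490 counts. Pairs of libraries of a group differed by 7.05 to 59.5 times counting noise (chi-square per degree of freedom), so none was a copy of another.

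Levels are given as CPM, the counts scaled to a common library size, after TMM scaling, a correction for differences in library composition. The targeted genes were read as a check of the labels. Nos3 had 31.8, 47.2 and 48.1 CPM in the wildtype libraries and 22.1, 22.0 and 20.4 CPM in the mutant ones, all below the wildtype. Counts per gene do not show which exons these reads come from. Notch1 had 74.3, 88.2 and 83.6 CPM under the wildtype label and 155, 161 and 139 CPM under the mutant label, which goes against the label of 1 disrupted copy (log2 fold change 0.89, adjusted p = 0.0313, edgeR). The groups are therefore named by their labels throughout, and every direction below is for the mutant label relative to the wildtype label. Markers of the tissue were present in every library, with summed CPM of 20900 to 41500 for 14 myocardial genes, 4700 to 11100 for 9 mesenchymal genes and 1040 to 1400 for 10 endothelial genes.

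A cell enters division when D-type cyclins and then E-type cyclins activate their kinases and release E2f factors, which turn on the genes of DNA synthesis. The Mcm helicase is loaded onto DNA by Cdc6 and Cdt1, and once it fires, Pcna holds the polymerases to the template while Rrm1 and Rrm2 supply deoxynucleotides. Cyclin A and cyclin B with Cdk1 then drive mitosis, Aurora and Polo kinases build the spindle, kinetochore proteins tie chromosomes to it, and Cdc20 and Ube2c lead to the destruction of the cyclins at its end. Genes of mitosis share a known promoter arrangement, in which CCAAT boxes bound by NF-Y stand close to a cell cycle genes homology region (CHR), whereas many replication genes carry E2F sites. At this stage the OFT is still growing, with dividing myocardial, endothelial and cushion mesenchymal cells.

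That arrangement was looked for in the promoters of the members, because the replication and the mitotic genes are compared below. RefSeq windows of 300 bases (250 before and 50 after a start, GRCm38.p6, the assembly called mm10) were held for 35 of the 45 genes, in 38 windows. The motifs searched on both strands were CCAAT for the CCAAT box, TTTGAA or TTTAAA for the CHR, and TTCCCGC or TTGGCGC or TTCGCGC or TTGCCGC for E2F. These motifs do not contain one another. A CHR was in 17 of the 18 windows of mitotic genes (94.4%) and in 3 of the 12 of replication genes (25.0%), against 27.6% of all 32851 windows. An E2F motif was in 9 of the 12 replication windows (75.0%) and 3 of the 18 mitotic ones (16.7%), against 9.57% of all windows. A CCAAT box was in 17 of the 18 mitotic and 9 of the 12 replication windows, against 37.4% of all. Both CCAAT and CHR were in 16 of the 18 mitotic windows (88.9%) and in 10.7% of all windows. The mitotic exceptions were Bub1, with no CHR match, and Birc5, with no CCAAT match. The matches are letters in a window and not evidence of binding.

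**Figure D1:**
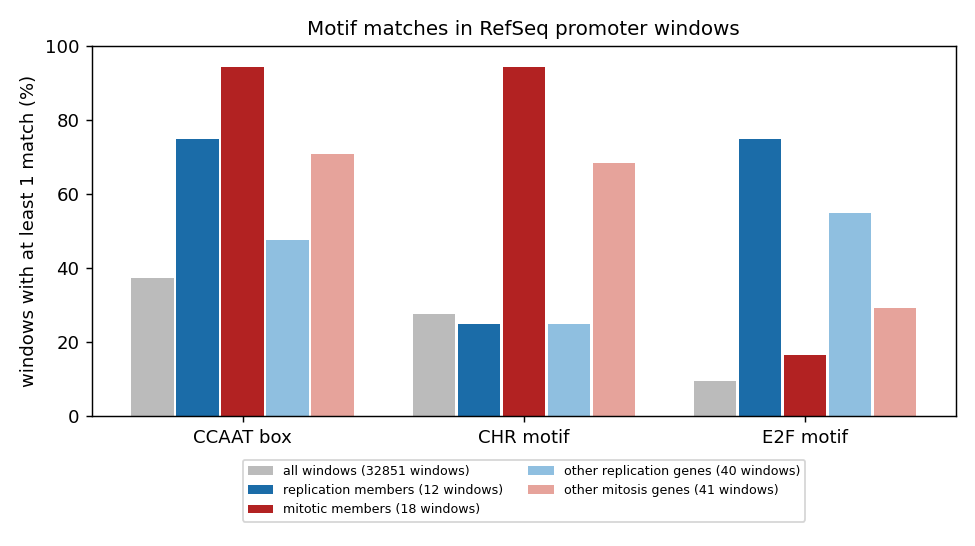
Share of RefSeq promoter windows (vertical axis, percent) with at least 1 match to each of 3 motifs, for all windows, for the replication and mitotic members, and for the other replication and mitosis genes. CHR matches are in 94.4% of the mitotic members' windows and E2F matches in 75.0% of those of the replication members.

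The upstream sequences below are those of the replication and of the mitotic genes with the largest fold changes for which a window was held, 2 of each, printed so that the matches can be seen in place. Each is the longest stretch of the window before the start that holds no annotated exon, on the strand of the gene, with motif matches in capitals. They lie at chr12:24708004-24708240 on the plus strand for Rrm2, and on the minus strand at chr2:132253315-132253356 for Pcna, chr1:189688087-189688336 for Cenpf and chr2:172370571-172370680 for Aurka.
Rrm2: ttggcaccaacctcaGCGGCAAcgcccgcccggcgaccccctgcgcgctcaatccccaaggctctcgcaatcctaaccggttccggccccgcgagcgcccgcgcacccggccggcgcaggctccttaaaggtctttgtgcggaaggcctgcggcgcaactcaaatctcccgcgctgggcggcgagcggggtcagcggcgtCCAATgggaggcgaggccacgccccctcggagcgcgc
Pcna: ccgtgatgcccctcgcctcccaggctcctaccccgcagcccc
Cenpf: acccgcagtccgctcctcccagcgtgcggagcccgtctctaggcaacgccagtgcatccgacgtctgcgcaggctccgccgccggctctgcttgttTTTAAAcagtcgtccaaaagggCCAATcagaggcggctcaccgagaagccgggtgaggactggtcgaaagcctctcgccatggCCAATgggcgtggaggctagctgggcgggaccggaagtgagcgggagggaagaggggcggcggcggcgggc
Aurka: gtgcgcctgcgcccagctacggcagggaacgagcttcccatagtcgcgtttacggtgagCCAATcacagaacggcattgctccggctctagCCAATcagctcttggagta
In Rrm2, the capitals mark an E2F match on the opposite strand 235 bases before the start and a CCAAT box 50 bases before it, and its 1 CHR match lies in the part of the window not printed. In Cenpf they mark a CHR 154 bases and CCAAT boxes 132 and 71 bases before the start. In Aurka they mark CCAAT boxes 51 and 19 bases before the start, and its 2 CHR matches lie in the part of the window not printed. The Pcna stretch holds no match, and the window as a whole holds 1 CCAAT box and no E2F match. These 4 genes do not split by programme as the shares do, since Rrm2 has all 3 motifs and Pcna lacks 2 of them.

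Between the labels, 42 of the 45 genes were lower in the mutant libraries and 3 were higher, with a median log2 fold change of −0.19. The median over all genes tested was 0.01, and over the 16655 genes averaging 1 CPM or more it was −0.03, with 54.7% of those genes lower. None of the 45 passed an adjusted p of at most 0.05 in edgeR's quasi-likelihood test (0 called), in a comparison that called 6 of 28157 genes (0.0213%). At an unadjusted p under 0.05 there were 14, all lower, against 7.83% of all genes lower and 8.23% higher at that level, and 11.9% lower among genes averaging 1 CPM or more. This count was 7 by library size alone, 5 with the myocardial covariate and 29 with the GC and length correction. Over all 28157 genes, 987, 662 and 2459 were lower at that p in these settings, against 2204 before. The count of members was 26 without wildtype replicate 1, and 9 both without wildtype replicate 3 and without mutant replicate 2. Lower genes at that p then numbered 3758 of 27450, 1216 of 27757 and 857 of 27485. The 3 mutant libraries were all below the 3 wildtype libraries for 21 of the 45 genes and all above them for 0, against 8.94% and 10.7% of all genes, and 12.8% below among genes averaging 1 CPM or more. These 2 shares, 11.9% at that p and 12.8% without overlap, are the background for the counts by role below. The 3 higher genes differed by 0.05 or less on the log2 scale, namely Tyms (0.05), which makes thymidylate, Foxm1 (0.04), a transcription factor of the G2 programme, and the Cdk inhibitor Cdkn1b (0.01). Tyms, Cenpa and Mcm7 are on the chromosome of Nos3, at 5.67, 6.28 and 114 Mb from it.

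Scaling by library size alone put the all-gene median at 0.11 and the median of the 45 genes at −0.08, which is −0.20 relative to all genes. Under that scaling 33 of the 45 genes lay below 0 (10 of the 13 replication, 4 of the 7 G1 to S and 19 of the 23 mitotic genes). The 12 genes above 0 were Tyms, Foxm1 and Cdkn1b as before, and Mcm5, Cdc6, Ccnd1, Cdk2, E2f1, Aurkb, Racgap1, Mki67 and Cdkn1a, which changed sign. Directions below are those after TMM scaling.

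How many genes were called depended on the test. DESeq2's Wald test called 7 of the 45, all lower (Ccne1, Kif11, Rrm2, Cenpf, Aurka, Ccna2 and Ccnb2), where it called 1.91% of 17781 genes lower. With the replicate number as a block, edgeR called 3, all lower (Rrm2, Ccne1 and Ccna2), against 2.42% of all genes called lower. With the block and each library corrected for the GC content and length of genes, 17 were called, all lower, against 5.06%. Without wildtype replicate 1 it called 11, all lower, against 5.30%. All 3 genes called under the block were also among the 7 of DESeq2. The block, with and without the correction, uses the replicate numbers of the sample titles. Only the block without the correction was also run with the numbers of the sample descriptions. With wildtype replicates 2 and 3 exchanged, as the sample descriptions number them, 0 of the 45 were called, and the adjusted p was 0.162 for Rrm2, 0.139 for Ccne1 and 0.237 for Ccna2 (edgeR, a setting chosen after the data were seen).

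**Figure D2:**
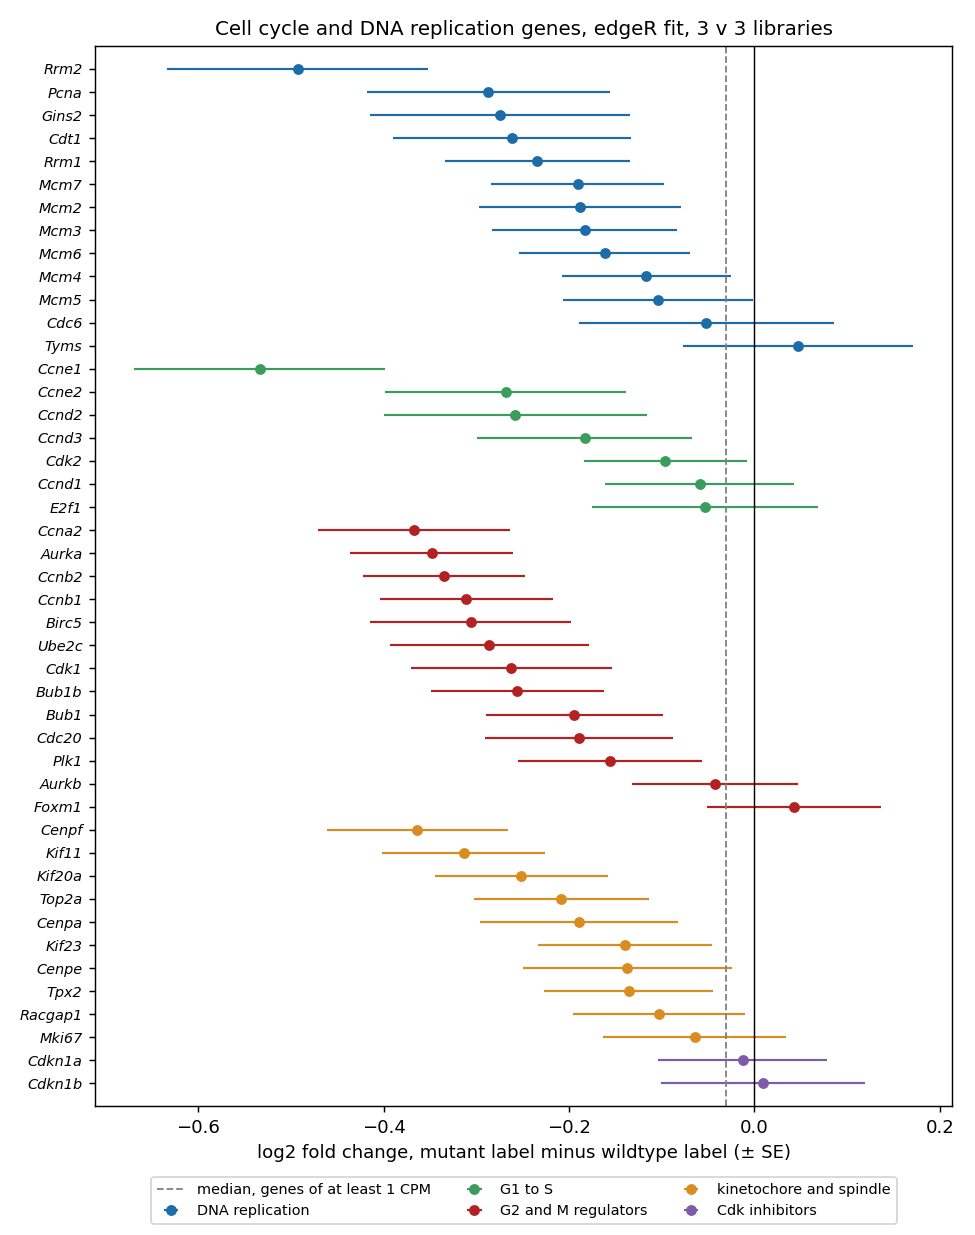
Log2 fold change of each of the 45 genes, mutant label minus wildtype label (points, with SE as bars; edgeR, 3 libraries a group), by role. The points lie below 0 for 42 genes and run from −0.53 for Ccne1 to 0.05 for Tyms; the dashed line marks the median of genes with at least 1 CPM.

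Among the genes of the passage from G1 to S phase, the E-type cyclin Ccne1 (ENSMUSG00000002068, chr7:38097984-38107534) differed most. It had 20.2, 20.5 and 27.1 CPM in the wildtype libraries and 15.2, 14.8 and 16.8 CPM in the mutant ones (22.6 ± 3.93 and 15.6 ± 1.05 CPM, mean ± SD, n = 3 each). The groups did not overlap, with wildtype replicate 3 the highest of all. Its log2 fold change was −0.53 ± 0.14 (SE, adjusted p = 0.188, edgeR), with an adjusted p of 0.0127 under the block by titles (0.139 by descriptions) and 0.0297 from DESeq2. Its paralogue Ccne2 had 24.6, 23.2 and 27.6 CPM under the wildtype label and 19.4, 18.5 and 24.6 CPM under the mutant label (log2 fold change −0.27 ± 0.13). These groups overlapped, since mutant replicate 3 was level with wildtype replicate 1 and above wildtype replicate 2.

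The D-type cyclins, which link growth signals to the cell cycle, overlapped between the groups. Ccnd1 had 84.5, 76.2 and 90.2 CPM in wildtype and 79.7, 74.5 and 86.6 CPM in mutant libraries (−0.06 ± 0.10 on the log2 scale). Ccnd2 had 264, 246 and 340 CPM in wildtype and 222, 215 and 273 CPM in mutant libraries (−0.26 ± 0.14). Ccnd3 had 175, 214 and 230 CPM in wildtype and 194, 178 and 174 CPM in mutant libraries (−0.18 ± 0.12). The adjusted p of these 3 was 0.821, 0.391 and 0.458 in the edgeR fit. With the block by titles and the GC and length correction, Ccnd2 and Ccnd3 were called (adjusted p = 0.00601 and 0.011, edgeR) and Ccnd1 was not (0.34). With the block alone, neither Ccnd2 nor Ccnd3 was called, by titles (0.202 and 0.471) or by descriptions (0.54 and 0.665, edgeR). Cdk2, the partner of E-type cyclins, and E2f1, an activator of S phase genes, had log2 fold changes of −0.10 and −0.05. All 7 genes of this group were lower, 1 of them at an unadjusted p under 0.05 and 2 without overlap, with a median of −0.18. The count of 1 of 7 is near the background of 11.9%.

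Of the 13 replication genes, 12 were lower, 2 of them at an unadjusted p under 0.05 and 6 without overlap, with a median log2 fold change of −0.19. The count of 2 of 13 at that p is near the background of 11.9%, and the 6 of 13 without overlap compare with 12.8%. Rrm2, the regulated subunit of ribonucleotide reductase (ENSMUSG00000020649, chr12:24708241-24714146), had 111, 107 and 130 CPM in the wildtype libraries and 84.5, 66.0 and 97.0 CPM in the mutant ones. Its log2 fold change of −0.49 ± 0.14 was the largest of the group, with an adjusted p of 0.195 in the edgeR fit, 0.00827 under the block by titles (0.162 by descriptions) and 0.0409 from DESeq2. Its partner Rrm1, the larger subunit, had a log2 fold change of −0.23 ± 0.10 without overlap (adjusted p = 0.292, edgeR).

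Pcna, the sliding clamp, had 75.6, 110 and 93.8 CPM under the wildtype label and 76.7, 71.6 and 80.6 CPM under the mutant label. The groups overlapped because wildtype replicate 1 lay among the mutant libraries. The log2 fold change of Pcna was −0.29 ± 0.13 (adjusted p = 0.318, edgeR), and −0.42 with an adjusted p of 0.0297 without wildtype replicate 1.

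The 6 subunits of the Mcm helicase differed little from one another, with log2 fold changes from −0.19 for Mcm7 to −0.10 for Mcm5. Mcm3, Mcm4, Mcm6 and Mcm7 did not overlap between the groups, and Mcm2 and Mcm5 did. The loading factors Cdt1 and Cdc6 had log2 fold changes of −0.26 and −0.05, and Gins2, a subunit of the active helicase, −0.27. All 3 overlapped between the groups, with wildtype replicate 1 below mutant replicate 1 in each.

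Among the 13 regulators of G2 and M phase, 12 were lower, 8 of them at an unadjusted p under 0.05 and 8 without overlap, with a median log2 fold change of −0.26, against backgrounds of 11.9% and 12.8%. Ccna2, cyclin A (ENSMUSG00000027715, chr3:36564865-36572150), had 135, 147 and 160 CPM in wildtype and 114, 106 and 122 CPM in mutant libraries. Its groups did not overlap, at a log2 fold change of −0.37 ± 0.10 (adjusted p = 0.194, edgeR), with an adjusted p of 0.0486 under the block by titles (0.237 by descriptions).

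The B-type cyclins, partners of Cdk1, were close to each other. Ccnb2 (ENSMUSG00000032218, chr9:70407692-70421547) had 70.4, 70.0 and 72.6 CPM in wildtype and 58.1, 53.8 and 57.0 CPM in mutant libraries, a log2 fold change of −0.33 ± 0.09. Ccnb1 (ENSMUSG00000041431, chr13:100778650-100786570) had 48.7, 49.7 and 52.6 CPM in wildtype and 43.0, 37.9 and 40.8 CPM in mutant libraries, a log2 fold change of −0.31 ± 0.09. Neither overlapped between the groups. Their adjusted p was 0.194 and 0.203 in the edgeR fit, and DESeq2 called Ccnb2 (0.0351) but not Ccnb1 (0.0816).

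The spindle kinase Aurka (ENSMUSG00000027496, chr2:172356190-172370535) had the smallest unadjusted p of the 45 genes. It had 51.0, 53.9 and 55.5 CPM in the wildtype libraries and 42.1, 41.5 and 42.4 CPM in the mutant ones. The spread within each group was small (53.5 ± 2.32 and 42.0 ± 0.487 CPM, mean ± SD, n = 3 each) beside the gap of 8.54 CPM between the nearest libraries. Its log2 fold change was −0.35 ± 0.09 (adjusted p = 0.187, edgeR). Aurkb, the Aurora kinase of the chromosomal passenger complex, had 36.2 to 39.6 CPM in wildtype and 36.4 to 37.1 CPM in mutant libraries, a log2 fold change of −0.04 ± 0.09. Birc5, a further member of that complex, was lower without overlap (−0.31 ± 0.11).

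The mitotic kinase Cdk1 overlapped between the groups (−0.26 ± 0.11). Ube2c and Bub1b, which act in the destruction of cyclins and in the spindle checkpoint, were lower without overlap at −0.29 and −0.26. Bub1 (−0.19), Cdc20 (−0.19) and Plk1 (−0.16) differed less, and of these only Bub1 did not overlap. Foxm1, a transcription factor of many of these genes, was not lower, with 48.2, 55.1 and 56.2 CPM in wildtype and 55.6, 55.0 and 53.7 CPM in mutant libraries.

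All 10 genes of the kinetochore, spindle and proliferation group were lower, 3 of them at an unadjusted p under 0.05 and 5 without overlap, with a median log2 fold change of −0.16, against the same backgrounds. Cenpf, a large protein of the outer kinetochore (ENSMUSG00000026605, chr1:189640606-189688086), had 181, 156 and 175 CPM in wildtype and 127, 133 and 138 CPM in mutant libraries. No mutant library reached the lowest wildtype one, and the log2 fold change was −0.36 ± 0.10 (adjusted p = 0.194, edgeR). Kif11, the motor that pushes spindle poles apart (ENSMUSG00000012443, chr19:37376403-37421859), had 174, 177 and 172 CPM in wildtype and 137, 143 and 141 CPM in mutant libraries. Its log2 fold change of −0.31 ± 0.09 moved only between −0.33 and −0.30 when single libraries were left out. DESeq2 called both genes (adjusted p = 0.0288 and 0.0258), and edgeR did with the block by titles and the GC and length correction (0.00159 and 0.00785). With the block alone, neither was called, by titles (0.0551 and 0.0902) or by descriptions (0.243 and 0.308, edgeR).

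The most used proliferation marker moved least in this group. Mki67 had 482, 429 and 449 CPM in wildtype and 414, 442 and 444 CPM in mutant libraries, so that the groups overlapped (−0.06 ± 0.10 on the log2 scale, adjusted p = 0.793, edgeR). The 95% interval of its log2 fold change ran from −0.28 to 0.15. Top2a, which untangles DNA before division, had 472, 444 and 471 CPM in wildtype and 392, 393 and 416 CPM in mutant libraries, without overlap (−0.21 ± 0.09, adjusted p = 0.313, edgeR). Kif20a (−0.25) and Tpx2 (−0.14) did not overlap either. Cenpa, Cenpe, Kif23 and Racgap1 overlapped, at −0.19 to −0.10.

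**Figure D3:**
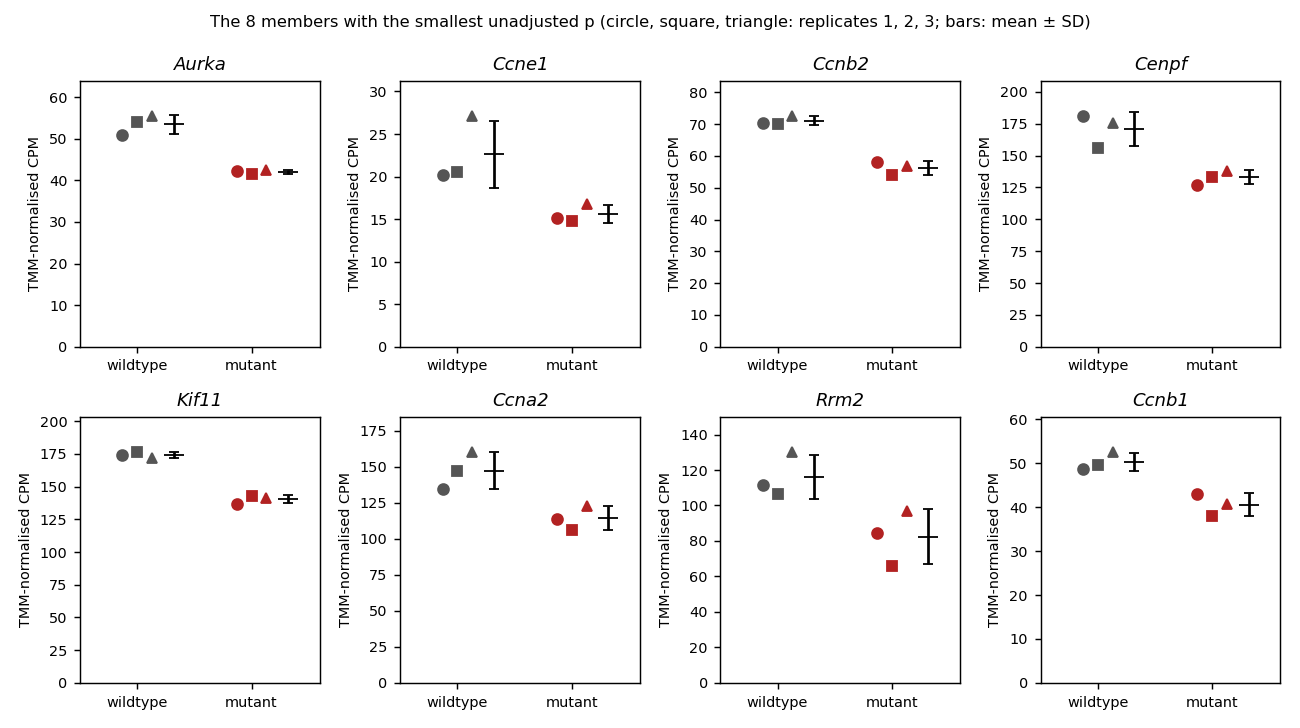
TMM-normalised CPM (vertical axis, from 0) of the 8 genes with the smallest unadjusted p, by label (horizontal axis). Symbols are single libraries and bars the mean ± SD of 3; for each gene all 3 mutant libraries lie below all 3 wildtype libraries, as for Kif11 at 137 to 143 against 172 to 177 CPM.

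Neither Cdk inhibitor among the members differed detectably. Cdkn1a, the p21 inhibitor and a target of p53, had 30.4, 31.7 and 33.5 CPM in wildtype and 31.7, 31.8 and 31.2 CPM in mutant libraries (−0.01 ± 0.09 on the log2 scale, 95% interval −0.21 to 0.19). Cdkn1b, the p27 inhibitor, had 60.2, 48.1 and 47.3 CPM in wildtype and 54.0, 51.1 and 51.7 CPM in mutant libraries (0.01 ± 0.11, 95% interval −0.23 to 0.25). Both groups of libraries overlapped for both genes. These intervals leave room for differences of the size seen in Mcm genes.

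**Figure D4:**
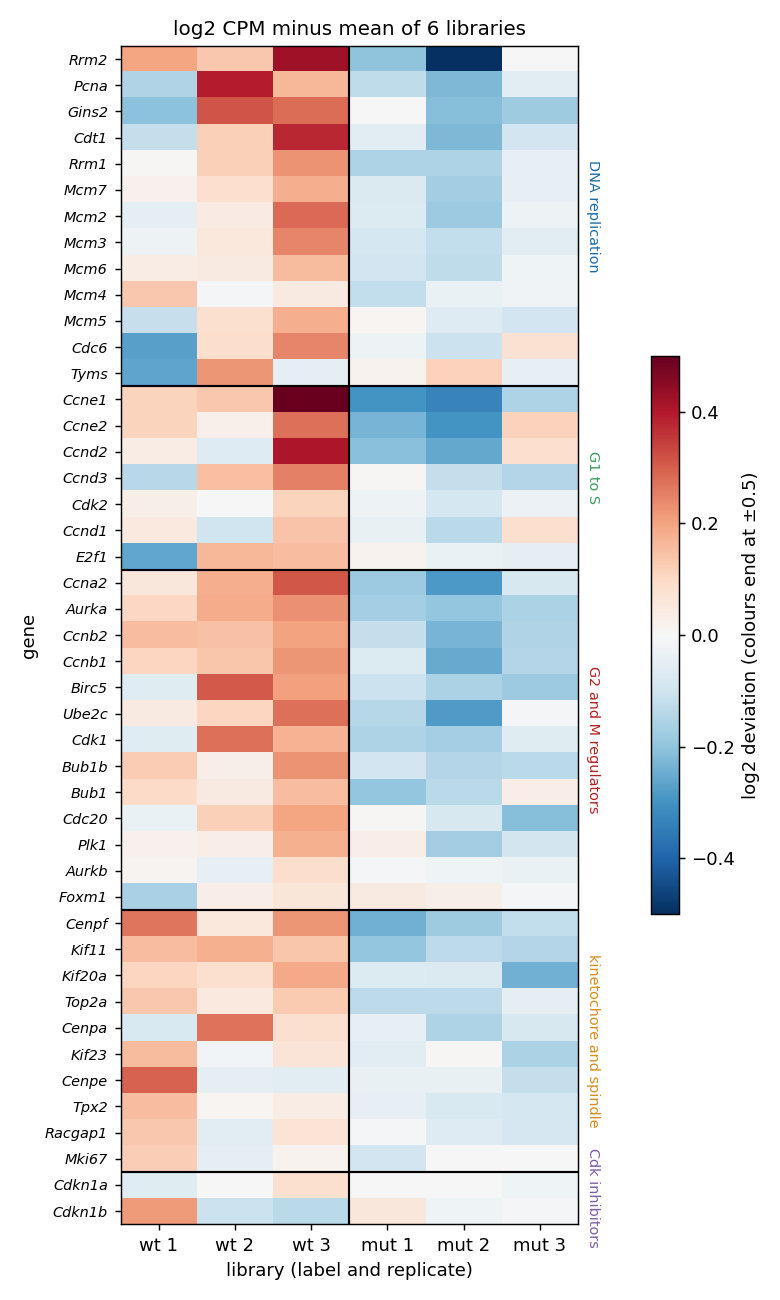
Log2 CPM of the 45 genes (rows, by role) in each of the 6 libraries (columns), as the deviation from the mean of the gene over the libraries (colour, ending at ±0.5). Many mitotic genes are red in all 3 wildtype columns, but Cdk1, Birc5, Foxm1, Cenpa and Cdc20 are blue in wildtype replicate 1. Cenpe, Mki67, Aurkb, Racgap1 and Kif23 are blue in wildtype replicate 2, some of them faintly, and Cenpe also in wildtype replicate 3. Several replication genes, among them Pcna, Gins2 and Cdc6, are blue in wildtype replicate 1.

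S phase and mitotic genes were then compared within each library by the mean log2 CPM of the 13 replication genes and of the 23 mitotic genes. The mitotic mean was 6.64, 6.64 and 6.70 in the wildtype libraries and 6.46, 6.43 and 6.45 in the mutant ones. These did not overlap, and the gap between the group means (−0.21) was larger than either SD (0.04 and 0.02, n = 3 each). The replication mean was 6.24, 6.43 and 6.52 in the wildtype libraries and 6.23, 6.15 and 6.26 in the mutant ones. Here wildtype replicate 1 lay below mutant replicate 3, and the difference of −0.19 compared with an SD of 0.14 among wildtype libraries. The replication mean minus the mitotic mean was −0.39, −0.21 and −0.18 in wildtype and −0.23, −0.28 and −0.19 in mutant libraries. The group means of this difference were 0.03 apart, less than its SD among wildtype libraries (0.11), so a shift between S phase and mitotic genes was not detectable with 3 libraries a group. The difference of the G1 to S genes was −0.20, with means of 6.01, 6.06 and 6.29 in wildtype and 5.91, 5.84 and 6.01 in mutant libraries.

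**Figure D5:**
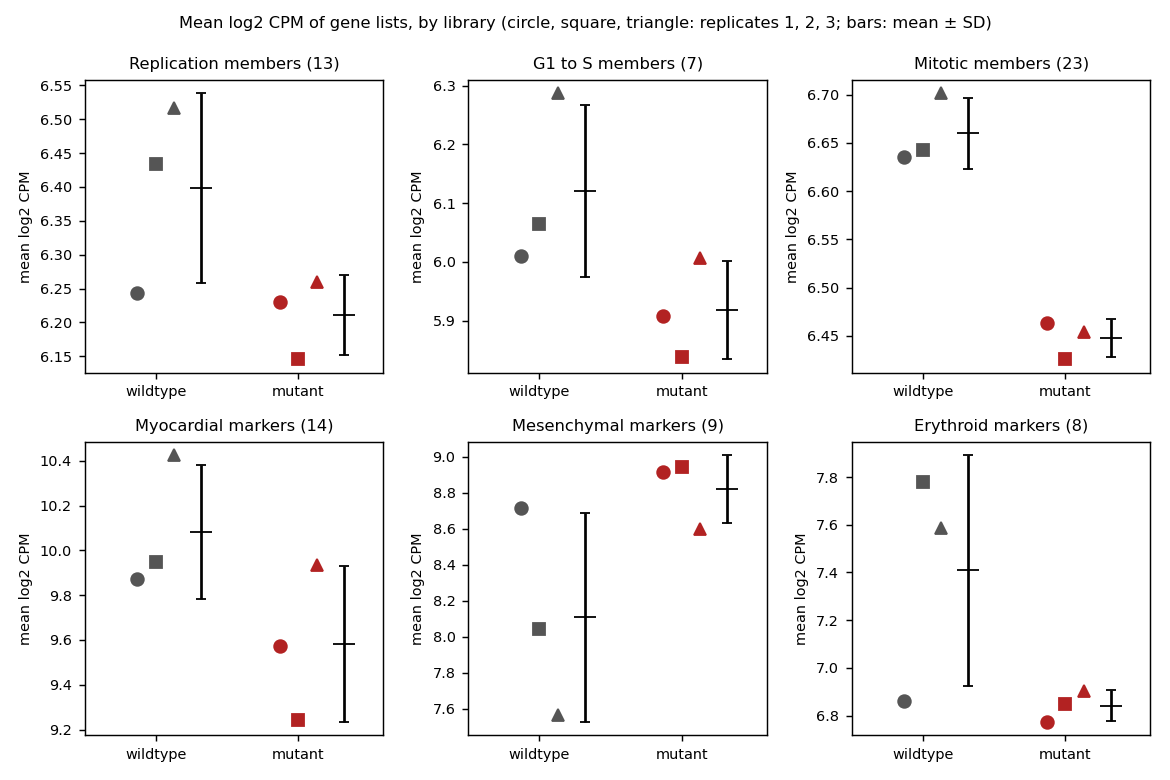
Mean log2 CPM (vertical axes, which do not start at 0) of 3 groups of members and 3 lists of cell type markers in each library, by label; symbols mark replicates and bars the mean ± SD of 3. The mitotic means do not overlap (6.64 to 6.70 against 6.43 to 6.46), and in the replication and erythroid panels wildtype replicate 1 lies with the mutant libraries.

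Some lists of cell type markers moved with the labels and others were mixed. Endothelial (median log2 fold change −0.07), smooth muscle (0.08), epicardial (−0.20) and macrophage (−0.02) lists held genes on both sides of 0. All 5 neural crest and glia markers were higher (median 0.37). All 14 myocardial markers were lower under the mutant label, with summed levels of 29700 to 41500 CPM in wildtype and 20900 to 29000 CPM in mutant libraries. Their mean log2 CPM overlapped, at 9.87 in wildtype replicate 1 and 9.93 in mutant replicate 3. All 9 mesenchymal markers were higher, with 4700 to 9190 and 8550 to 11100 CPM. All 8 erythroid markers were lower, with 4790, 9750 and 8430 CPM in the wildtype libraries and 5110 to 5270 CPM in the mutant ones. The 6 liver markers had 94.6 and 25.9 CPM in wildtype replicates 2 and 3 and 1.03 to 4.99 CPM in the other libraries. In bulk tissue, fewer cells of a type and less RNA per cell cannot be told apart. Their part in the differences of the cell cycle genes was not tested beyond the following values. With the myocardial mean as a covariate, the median log2 fold change was −0.07 for the replication and −0.18 for the mitotic genes. Members at an unadjusted p under 0.05 numbered 5 in place of 14, all lower. Over all 28157 genes, those lower at that p numbered 662 in place of 2204. With wildtype replicates 2 and 3 left out, a setting chosen after the data were seen that leaves 1 wildtype library, the replication median was −0.03, with 7 of 13 genes lower, and the mitotic median −0.22, with 22 of 23 lower.

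Other genes of the same programmes were read from lists of the remaining replication and mitosis genes, cell cycle control genes, Cdk inhibitors and p53 targets. These lists too were chosen with earlier results of these data known. None of their genes was called in the edgeR fit (0 of 123), and 36 had an unadjusted p under 0.05. Over all 28157 genes, 6 were called and 4522 had such a p, with 7.83% of genes lower and 8.23% higher at that level. Among genes averaging 1 CPM or more, 11.9% were lower at that level. The 36 were 11 replication, 17 mitosis, 4 control, 2 Cdk inhibitor and 2 p53 target genes. Of 38 other replication genes, 36 were lower, with a median log2 fold change of −0.14, 11 lower at an unadjusted p under 0.05 and 0 higher. Gmnn, the inhibitor of Cdt1 (−0.50), and Dut, which keeps uracil out of DNA (−0.48), were the lowest, and Rfc2 (0.03) and Pold1 (0.17) the highest. Of 40 other mitosis genes, 37 were lower, with a median of −0.21, 16 lower and 1 higher at an unadjusted p under 0.05. Cenpk (−0.48) and Spc25 (−0.40), both of the kinetochore, were the lowest, and Espl1 (0.11) and Cenpt (0.32) the highest.

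Among the lists outside the core programmes, the control genes and the p53 targets had medians near 0. Of 25 other cell cycle control genes, 16 were lower, with a median of −0.01. They ran from Mycn (−0.31) and Wee1 (−0.27) to Myc (0.14) and Pkmyt1 (0.36). Wee1 and Pkmyt1 are kinases that act on entry into mitosis, so this list is not one of G1 to S genes alone. Of 15 p53 targets, 9 were lower, with a median of −0.02, from Ccng1 (−0.38) and Gtse1 (−0.15) to Eda2r (0.27) and Tnfrsf10b (0.33). The 5 other Cdk inhibitors were spread widely, with a median of −0.10. Cdkn1c, the p57 inhibitor, had 165, 205 and 257 CPM in wildtype and 114, 106 and 137 CPM in mutant libraries, a log2 fold change of −0.81 ± 0.16 (adjusted p = 0.152, edgeR) with an adjusted p of 0.000434 under the block by titles and 0.0386 by descriptions. Cdkn2d (−0.41) and Cdkn2c (−0.10) were lower and Cdkn2b (0.80), at 0.678 to 2.57 CPM, was higher.

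Levels per kilobase of exon were compared between genes of the wildtype libraries, since CPM grows with gene length. Top2a had the highest level per kilobase (51.3 CPM per kb), followed by Ube2c (49.1), Ccnb2 (46.4) and Mki67 (45), and Cdc6 had the lowest (3.87). By CPM without length, Mki67 was number 2 and Ccnb2 was number 29. The 6 Mcm genes, whose products form 1 ring with a copy of each, ran from 18.9 CPM per kb for Mcm2 to 40.9 for Mcm6. The length used joins all annotated exons of a gene, 6.96 kb for Mcm2 and 3.59 to 4.67 kb for the other Mcm genes. By CPM without length they ran from 100 for Mcm4 to 191 for Mcm6, with Mcm2 at 131, so their order depends on the annotated length. D-type cyclins stood above E-type cyclins on this scale, at 17.8 to 30.1 against 7.19 and 8.49 CPM per kb. In 12 of the 45 genes exons overlap those of another gene, among them Ccna2 with Exosc9, Ccnd3 with Bysl and Mcm7 with Cops6. Whether the counting used the strand is not given in the sources used here, so the levels of these 12 genes are uncertain.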

How the data were processed

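Bulk RNA-Seq was analysed in 6 libraries (3 labelled mutant, 3 labelled wildtype). The authors prepared ribosomal RNA-depleted stranded libraries, aligned the trimmed reads to mm10 with TopHat 2.1.0 and counted reads on exons with GenomicAlignments. The deposited values are raw counts per Ensembl gene. The annotation release and strand setting are not given in the sources used here. Groups and replicate numbers follow the sample titles. For wildtype replicates 2 and 3 the descriptions give the opposite library numbers.

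Genes with more than 5 reads over the libraries were scaled by TMM and tested with edgeR 4.0.16 (quasi-likelihood, Benjamini-Hochberg over 28157 genes, adjusted p of at most 0.05) in R 4.3.3. DESeq2 1.42.0 and limma 3.58.1 (voom) were alternatives, with other scalings and filters, a replicate block, a GC content and length correction, the myocardial mean as a covariate, and each library left out. DESeq2's adjusted p was missing for genes it filtered, which stayed out of its background. Library means used log2 CPM with a prior count of 2. Intervals are the log2 fold change with SE times the 95% point of the t distribution of the fit. The code was tested on simulated counts.

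Same-numbered libraries deviated together from their group means (r = 0.106, 0.152 and 0.433 over 16651 genes), so the numbers were taken to pair the libraries. This pairing comes from the data, and wildtype replicate 1 correlated more with mutant replicate 2 (0.294). With the descriptions' numbers, r was −0.450 for the pair numbered 2 and −0.114 for the pair numbered 3. The pairing was judged from the same counts that were then tested, so calls under the block are not independent support for a difference.

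Identifiers were paired with symbols, exons and GC content through GENCODE (vM21), and promoters come from RefSeq (GRCm38.p6). Genes given in full are the 8 members with the smallest unadjusted p, the Cdk inhibitors, the D-type and E-type cyclins, Mki67, Top2a and Pcna. Of each other list, the 2 highest and the 2 lowest log2 fold changes with a mean of at least 1 CPM are named. The members and lists were chosen with earlier results of these data known. Replicates are separate pools of embryos. The single-cell and human data were not analysed here.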

Additional observations from a re-analysis of the deposited data

How the results depend on the processing

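Of the 45 genes, 0 were called, against 7 with DESeq2, 3 with the replicate block, 17 with the block and the GC and length correction, and 0 to 11 when single libraries were left out (11 without wildtype replicate 1). Calls over all genes numbered 6, against 749 with DESeq2, 1577 with the replicate block, 2422 with the block and the correction, 83 with the replicate block by the descriptions' numbers, 2 without wildtype replicates 2 and 3, and 1 to 2593 when single libraries were left out (2593 without wildtype replicate 1). The descriptions' numbers, and leaving out both wildtype replicates 2 and 3, were chosen after the data were seen. The block by the descriptions' numbers gave 0 calls among the 45, and it was run only without the correction. Genes at an unadjusted p under 0.05 numbered 14, against 7 by library size alone, 29 with the GC and length correction, 32 with the correction and the replicate block, 5 with the myocardial covariate, and 9 to 26 when single libraries were left out. Over all genes, those lower at that p numbered 2204, against 987, 2459, 3170 and 662 in the same order. They numbered 857 to 3758 when single libraries were left out. The cause of these changes was not tested.

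The replication median of −0.19 was −0.081 by library size alone, −0.070 with the myocardial covariate, −0.035 without wildtype replicates 2 and 3, and −0.24 (without wildtype replicate 1) to −0.12 (without wildtype replicate 3) when single libraries were left out. The mitotic median of −0.21 was −0.10 by library size alone, −0.25 with the correction, −0.24 with the correction and the block, −0.18 with the covariate, and −0.26 to −0.20 when single libraries were left out. The replication minus mitotic difference between labels of 0.03 was 0.16 without wildtype replicates 2 and 3. It was 0.01 with the GC and length correction, 0.03 with a prior count of 0.5, and −0.04 to 0.06 when single libraries were left out. A scaling factor cancels in this within-library difference, and tests, filters and a block do not enter it, so these were not run for it, nor was the covariate.

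Among genes given in full, some signs turned. Under library size alone, log2 fold changes were 0.093 (Cdkn1a), 0.045 (Ccnd1) and 0.039 (Mki67). With the myocardial covariate they were 0.026 (Cdkn1a), −0.075 (Cdkn1b), 0.089 (Ccnd1) and 0.054 (Ccnd2). With single libraries left out, Cdkn1a ran from −0.046 (without wildtype replicate 1) to 0.025 (without wildtype replicate 3), and Cdkn1b from −0.052 (without wildtype replicate 3) to 0.13 (without wildtype replicate 1). Without wildtype replicates 2 and 3 they were 0.0595 (Cdkn1a), −0.20 (Cdkn1b), 0.0575 (Ccnd3) and 0.0185 (Pcna). Of the other values of these genes, 233 under planned settings kept their direction and side of the threshold and 28 kept their direction and passed it. Every member had at least 20.3 CPM on average in wildtype libraries. Whether depth or the spread between 3 libraries a group limits these comparisons was not tested.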
